A study of Mus musculus with 4 samples.

Results

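The 50 genes described here build the actin cytoskeleton, its links to the membrane and to adhesion sites, and the vimentin and lamin filaments. All 50 were found by symbol among the 22083 genes of the deposited table. They were followed in group 2 innate lymphoid cells (ILC2s), lymphocytes that reside in tissue, carry no antigen receptor and release type 2 cytokines. The cells had been sorted either from small intestinal lamina propria (SI-ILC2s) or from white fat of the mesentery (WAT-ILC2s). All mice were wild-type C57BL/6 animals aged 9 weeks, and each tissue gave 2 libraries made from total RNA. The sort markers are not among the details given, nor is it known whether a tissue's libraries represent different mice. The p-values therefore cover the spread between libraries only, and that spread may be technical.

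Actin monomers assemble into filaments that push out the cell edge, form the cortex under the membrane and, with myosin, contract. Nucleators such as the Arp2/3 complex start branches, capping and severing proteins limit filament length, crosslinkers such as filamin and plastin set the mesh, and talin, vinculin and the ERM proteins tie the mesh to integrins and to the membrane. Vimentin and the lamins form a separate, tougher filament system in the cytoplasm and at the nuclear envelope, and lymphocytes remodel both systems as they enter, cross and settle in tissue.

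Levels are given as the RPKM the authors deposited, a read count divided by gene length and library size, in the order replicate 1 and replicate 2. RPKM is scaled to gene length. Levels of different genes are still only roughly comparable, because the annotation used and the placing of multi-mapped reads are not known. Each change is a difference of means on the log2(RPKM + 1) scale, SI-ILC2 minus WAT-ILC2, with its standard error, so a negative change means a lower level in SI-ILC2s, and low genes are understated. Adjusted p-values come from limma with Benjamini-Hochberg adjustment over the 8230 genes that reached 1 RPKM in at least 2 libraries, and a gene is said to have risen or fallen where this value was under 0.05. Depth, estimated from the step size of the values, was 76600000 and 60100000 reads in SI-ILC2s and 55300000 and 65600000 reads in WAT-ILC2s. In sorted bulk samples, fewer cells of a kind and less RNA per cell cannot be told apart, and neither can tissue and the isolation from that tissue.

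Most of the cytoskeletal genes were lower in SI-ILC2s. Of the 49 that were tested, 28 fell in SI-ILC2s, 1 rose and 20 did not pass; Actn1 stayed below the expression filter. Over all tested genes, 29.6% fell and 17.9% rose. Both SI-ILC2 libraries lay below both WAT-ILC2 libraries for 33 of the 49 genes, against 45.9% of all tested genes, and above them for 1, against 29.8%. The median change was -0.55 for the 49 genes, with quartiles at -1.16 and -0.16, and -0.15 for all tested genes, with quartiles at -0.55 and 0.32. A fall of more than 1 on the log2 scale that also passed the test was seen in 19 of the 49 genes and in 8.94% of all tested genes.

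The background and the count among the 49 genes both depend on how libraries are scaled. With median-of-ratios scaling, 23.8% of all tested genes rose and 22.1% fell, and the median change over all genes was 0.00. Of the 49, 23 then fell and 1 rose, with a median of -0.40. With quantile normalization 28 fell and 1 rose, while 22.9% of all genes fell and 21.5% rose. After rescaling to equal column sums 32 fell and 1 rose, while 35.1% of all genes fell and 13.7% rose, with a median over all genes of -0.26. Of the 29 calls, 20 held under every alternative in which the gene was tested, and 9 were lost under at least 1 of the 14. These 9 were Actr2, Arpc2, Arpc5, Lsp1, Tagln2, Tln1, Tmsb10, Tpm3 and Vcl, all of them falls.

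**Figure D1:**
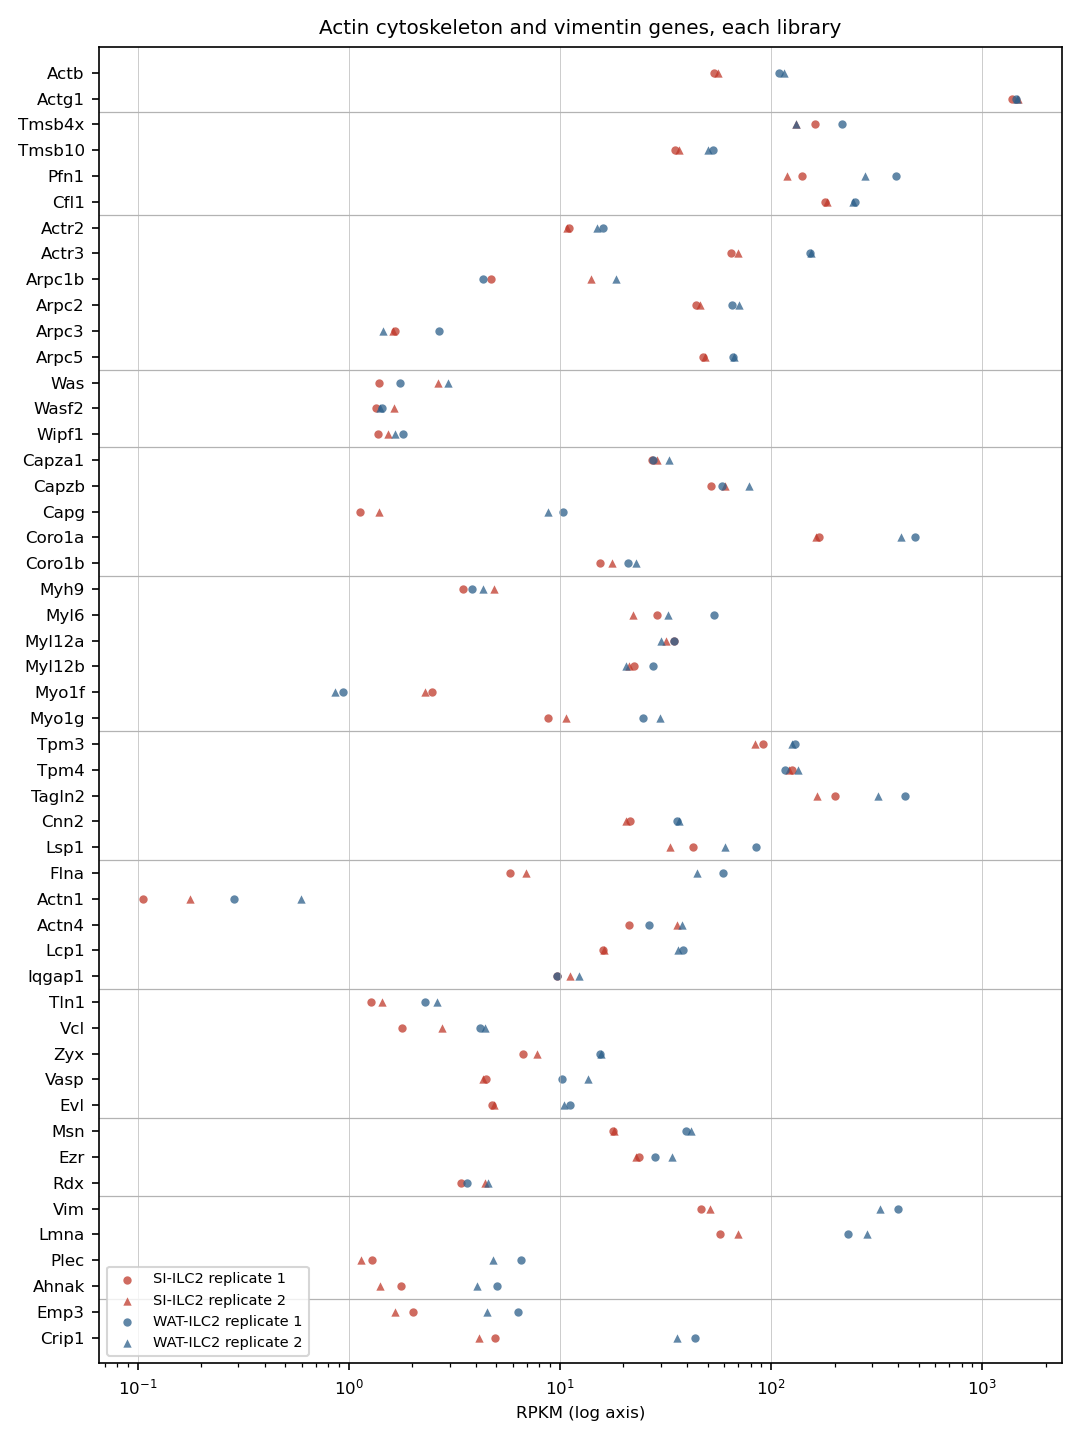
RPKM of each of the 50 genes in the 4 libraries on a log axis, grouped by role, with a point for each SI-ILC2 and WAT-ILC2 library. Crip1, Flna, Capg and Vim show the widest gaps between tissues, while Actg1, the most abundant of the 50 at 1377 to 1482 RPKM, shows none.

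Among abundant genes the direction differed from that of the rest of the table. Of the 216 tested genes with a mean of at least 100 RPKM, 28.2% rose and 20.4% fell, with a median change of 0.40. Of the 11 cytoskeletal genes at that level, 7 fell and none rose, with a median of -1.03. At 20 to 100 RPKM, 10 of 17 cytoskeletal genes fell, with a median of -0.59 against 0.06 for the 798 genes at that level. Of those 798 genes, 28.2% fell and 26.1% rose. At 5 to 20 RPKM, 6 of 9 fell, with a median of -1.01 against -0.12 for all genes at that level, of which 28.6% fell. Below 5 RPKM, 5 of 12 fell and 1 rose, and their median of -0.17 was close to the -0.19 of all genes at that level, of which 30.8% fell. The median of the cytoskeletal genes was below 0 in each length group. By annotated exon length, the median change of the cytoskeletal genes was -0.59 below 2500 bases, -0.41 from 2500 to 5000 bases and -0.71 at 5000 bases and above, where all tested genes had medians of 0.02, -0.15 and -0.20.

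Cytoplasmic actin itself comes from a pair of genes. Actg1, gamma-actin, had 1377 and 1482 RPKM in SI-ILC2s, against 1445 and 1462 RPKM in WAT-ILC2s, with a change of -0.02 ± 0.22 that did not pass (adjusted p = 0.93). The groups overlapped, and the level was the highest of the 50 genes in every library. Actb, beta-actin, had 53.4 and 56.1 RPKM in SI-ILC2s, against 109.6 and 115 RPKM in WAT-ILC2s. Both SI-ILC2 libraries were lower, with a change of -1.02 ± 0.14 (adjusted p = 0.0025). Actb thus made up 3.73 and 3.65% in SI-ILC2s, against 7.05 and 7.30% in WAT-ILC2s, of the summed RPKM of both genes. Actg1 shares 55.9% of its annotated 50-base stretches with other genes, with Gm12715 sharing the most, and Actb shares 14.2%. The split between them is therefore uncertain where multi-mapped reads were placed among copies.

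The 50 genes together summed to 3204 and 3264 RPKM in SI-ILC2s, against 5261 and 4890 RPKM in WAT-ILC2s. That was 2.02% and 2.16% of the column sum in SI-ILC2s, against 3.71% and 3.58% in WAT-ILC2s. The part of Actg1 of the sum was 43.0% and 45.4% in SI-ILC2s, against 27.5% and 29.9% in WAT-ILC2s.

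Serum response factor, which with its actin-sensing MRTF partners drives many actin genes, binds the CArG box. A search of both strands ran from 250 bases before to 50 after the annotated start, in RefSeq promoter windows of GRCm38.p6. The 46 cytoskeletal genes with a window had 58 windows, and a gene counted if any of its windows matched. A CArG box was in 4 of the 46 (8.70%), against 1.59% of the 6212 tested genes with a window and 1.81% of all 27025. The 4 are printed so that the boxes, in capitals, can be compared. The Myl6 stretch lies inside the gene as annotated in GENCODE M21, before a RefSeq start within it. Each stretch reads 5′ to 3′ along the gene.
Actg1, chr11:120348551-120348610, minus strand: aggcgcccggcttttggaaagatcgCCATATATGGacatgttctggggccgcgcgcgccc
Cnn2, chr10:79988519-79988578, plus strand: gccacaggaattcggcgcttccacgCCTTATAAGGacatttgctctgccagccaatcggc
Myl6, chr10:128493046-128493084, minus strand: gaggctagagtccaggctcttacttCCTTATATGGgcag
Vcl, chr14:20929148-20929205, plus strand: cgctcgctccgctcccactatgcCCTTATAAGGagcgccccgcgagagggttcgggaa

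The 4 genes with a box did not move alike. Cnn2, calponin 2, had 21.4 and 20.6 RPKM in SI-ILC2s, against 36.04 and 36.8 RPKM in WAT-ILC2s, and fell, with a change of -0.76 ± 0.13 (adjusted p = 0.0051). Vcl, vinculin, which joins talin to actin at adhesion sites, had 1.78 and 2.75 RPKM in SI-ILC2s, against 4.19 and 4.41 RPKM in WAT-ILC2s, a change of -0.71 ± 0.18 (adjusted p = 0.02). The libraries were separated in both genes, whereas Actg1 did not pass. Myl6, the essential light chain of non-muscle myosin, had 28.8 and 22.2 RPKM in SI-ILC2s, against 53.7 and 32.6 RPKM in WAT-ILC2s, and its change of -0.71 ± 0.26 did not pass (adjusted p = 0.062) although both SI-ILC2 libraries lay below. Srf, which encodes the factor, had 2.11 and 2.35 RPKM in SI-ILC2s, against 3.89 and 3.57 RPKM in WAT-ILC2s, and fell, with a change of -0.55 ± 0.14 (adjusted p = 0.021). Of its partners, Mkl1 did not pass (change -0.08, adjusted p = 0.64, with overlap), and Mkl2 was not tested. A box in a window is a match of letters and says nothing of binding.

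Among the proteins that hold actin monomers, Pfn1 had the clearest difference. Profilin 1, its product, feeds monomers to growing filament ends. Pfn1 had 141 and 119 RPKM in SI-ILC2s, against 391 and 279 RPKM in WAT-ILC2s, a change of -1.34 ± 0.22 (adjusted p = 0.0041). Tmsb10, a thymosin that sequesters monomers, had 35.2 and 36.6 RPKM in SI-ILC2s, against 53.3 and 50.1 RPKM in WAT-ILC2s, and fell, with a change of -0.51 ± 0.14 (adjusted p = 0.024). This call was kept under 9 of the 14 alternatives, and 43.5% of the 50-base stretches of Tmsb10 occur in other genes. Its paralog Tmsb4x had 161 and 131 RPKM in SI-ILC2s, against 217 and 131 RPKM in WAT-ILC2s; WAT-ILC2 replicate 2 matched the lower SI-ILC2 library, the groups overlapped, and the change of -0.21 did not pass (adjusted p = 0.53). Tmsb4x made up 82.03 and 78.2% in SI-ILC2s, against 80.3 and 72.4% in WAT-ILC2s, of the thymosin sum, with overlapping groups. Cfl1, cofilin 1, which severs old filaments, had 181 and 185 RPKM in SI-ILC2s, against 249.7 and 244 RPKM in WAT-ILC2s. Both SI-ILC2 libraries were lower, but the change of -0.43 ± 0.16 did not pass (adjusted p = 0.062).

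Of the 6 listed subunits of the Arp2/3 complex, the nucleator of branched filaments, 4 fell and none rose. Of all tested genes, 29.6% fell and 17.9% rose. Actr3, an actin-related subunit, had 64.4 and 69.4 RPKM in SI-ILC2s, against 153 and 154 RPKM in WAT-ILC2s, and changed by -1.19 ± 0.15 (adjusted p = 0.0016). The other 3 falls were smaller. Arpc2 had 43.99 and 46.1 RPKM in SI-ILC2s, against 65.6 and 70.9 RPKM in WAT-ILC2s (change -0.59 ± 0.14, adjusted p = 0.016). Actr2, the second actin-related subunit, had 11.1 and 10.7 RPKM in SI-ILC2s, against 15.97 and 15 RPKM in WAT-ILC2s (change -0.47 ± 0.13, adjusted p = 0.029). Arpc5 had 47.8 and 48.5 RPKM in SI-ILC2s, against 66.04 and 66.4 RPKM in WAT-ILC2s (change -0.45 ± 0.14, adjusted p = 0.035). The libraries of the tissues were separated in all 4. The Arpc2 call was kept under 11 of the 14 alternatives, that of Actr2 under 8 of the 14 and that of Arpc5 under 8 of the 14. Of the stretches of Actr3, 49.8% occur in other genes, with Gm8822 sharing the most, and the separate level of Actr3 is uncertain for that reason.

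The other listed subunits did not pass. Arpc3 had 1.65 and 1.61 RPKM in SI-ILC2s, against 2.66 and 1.46 RPKM in WAT-ILC2s, with overlap (change -0.19, adjusted p = 0.48). Arpc1b had 4.70 and 14.1 RPKM in SI-ILC2s, against 4.30 and 18.5 RPKM in WAT-ILC2s, and the replicate 2 libraries of both tissues were well above the replicate 1 libraries. Its change of -0.13 ± 0.67 (adjusted p = 0.88) turned to 0.81 without WAT-ILC2 replicate 2 and to -1.07 without WAT-ILC2 replicate 1, and adjusted p-values over the alternatives ranged from 9.7e-06 to 0.97. Exons of Arpc1b overlap those of Pdap1 on the other strand. Arpc1a, its paralog and not among the 50, had 16.3 and 19.4 RPKM in SI-ILC2s, against 10.5 and 10.5 RPKM in WAT-ILC2s, and rose by 0.71 ± 0.15 (adjusted p = 0.0095). Arpc4, a further subunit outside the 50, had 62.5 and 58.9 RPKM in SI-ILC2s, against 52.5 and 50.6 RPKM in WAT-ILC2s. Both SI-ILC2 libraries were higher, but the change of 0.23 ± 0.14 did not pass (adjusted p = 0.21). Arpc5l, also outside the 50, did not pass either (change -0.14, adjusted p = 0.44). Actr3 took 37.1 and 36.4% in SI-ILC2s, against 49.8 and 47.2% in WAT-ILC2s, of the summed RPKM of the 6 listed subunits. The groups were separated, and the sum leaves out Arpc1a, Arpc4 and Arpc5l. Arpc5 took 27.5 and 25.5% in SI-ILC2s, against 21.5 and 20.4% in WAT-ILC2s, and Arpc2 took 25.3 and 24.2% in SI-ILC2s, against 21.3 and 21.7% in WAT-ILC2s, both with higher shares in SI-ILC2s.

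The factors that switch on Arp2/3 were low and none of the 3 passed. Was, the haematopoietic activator mutated in Wiskott-Aldrich syndrome, had 1.39 and 2.64 RPKM in SI-ILC2s, against 1.74 and 2.95 RPKM in WAT-ILC2s (change -0.16, adjusted p = 0.64). Wipf1, its binding partner, had 1.38 and 1.53 RPKM in SI-ILC2s, against 1.80 and 1.66 RPKM in WAT-ILC2s (change -0.15, adjusted p = 0.36). Wasf2, the WAVE subunit that activates at the leading edge, had 1.35 and 1.63 RPKM in SI-ILC2s, against 1.43 and 1.40 RPKM in WAT-ILC2s (change 0.04, adjusted p = 0.82). Libraries overlapped in Was and Wasf2, while for Wipf1 both SI-ILC2 libraries were slightly lower.

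Capg and Coro1a stood apart among the capping proteins and coronins. Capg caps the growing end of filaments, and had 1.13 and 1.39 RPKM in SI-ILC2s, against 10.4 and 8.76 RPKM in WAT-ILC2s. The mean was 7.61-fold higher in WAT-ILC2s, and the change was -2.23 ± 0.16 (adjusted p = 3.2e-04), with wide separation. Coro1a, coronin 1A, the actin-binding coronin of leukocytes, had 168 and 164 RPKM in SI-ILC2s, against 481 and 414 RPKM in WAT-ILC2s. Its mean was 2.7-fold higher in WAT-ILC2s, with a change of -1.42 ± 0.17 (adjusted p = 0.0016) and no overlap. Coro1a overlaps exons of Bola2 on the opposite strand, and whether the counting used strand is not known here. Within the sum of both coronins Coro1a took 91.6 and 90.2% in SI-ILC2s, against 95.8 and 94.7% in WAT-ILC2s, with lower shares in both SI-ILC2 libraries. Coro1b had 15.5 and 17.7 RPKM in SI-ILC2s, against 20.9 and 22.98 RPKM in WAT-ILC2s (change -0.38 ± 0.14, adjusted p = 0.069), with SI-ILC2s lower in both libraries and exon overlaps with Ptprcap and Rps6kb2.

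Neither listed subunit gene of the heterodimeric capping protein passed. Capza1 had 27.4 and 28.9 RPKM in SI-ILC2s, against 27.5 and 32.95 RPKM in WAT-ILC2s (change -0.09, adjusted p = 0.63), and 73.8% of its stretches occur elsewhere. Capzb had 51.8 and 60.3 RPKM in SI-ILC2s, against 58.3 and 78.2 RPKM in WAT-ILC2s (change -0.27, adjusted p = 0.28). The libraries overlapped in both genes. Capza2, a paralog of Capza1 outside the 50, had 77.7 and 79.98 RPKM in SI-ILC2s, against 61.6 and 68.3 RPKM in WAT-ILC2s. Both of its SI-ILC2 libraries were higher, but the change of 0.28 ± 0.15 did not pass (adjusted p = 0.16).

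Myo1f and Myo1g, class I myosins, which are single-headed motors that tie actin to membrane, moved in opposite directions. Myo1g had 8.81 and 10.7 RPKM in SI-ILC2s, against 24.7 and 29.7 RPKM in WAT-ILC2s, and fell, with a change of -1.39 ± 0.16 (adjusted p = 0.0014), with both SI-ILC2 libraries lower. Myo1f had 2.48 and 2.29 RPKM in SI-ILC2s, against 0.937 and 0.856 RPKM in WAT-ILC2s, and rose by 0.83 ± 0.13 (adjusted p = 0.0032), with both SI-ILC2 libraries above. Myo1f is the only one of the 49 genes that rose, and it reached the filter through its SI-ILC2 libraries alone, though it also rose with no filter. It was called in all 11 alternatives in which it could be tested. At a floor of 5 RPKM, or without either SI-ILC2 library, it was not tested because fewer than 2 libraries then reached the filter. Myo1f took 21.95 and 17.7% in SI-ILC2s, against 3.65 and 2.80% in WAT-ILC2s, of the sum of the pair. Outside the 50, the class I myosins Myo1e (change 0.41, adjusted p = 0.12) and Myo1d (change -0.26, adjusted p = 0.25) did not pass, and Myo1c was not tested. No shared 50-base stretch was found for Myo1f or Myo1g, and no exon overlap.

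The conventional non-muscle myosin genes did not pass. Myh9, its heavy chain, had 3.46 and 4.88 RPKM in SI-ILC2s, against 3.82 and 4.32 RPKM in WAT-ILC2s (change 0.02, adjusted p = 0.95). Myl12a, a regulatory light chain, had 34.7 and 31.9 RPKM in SI-ILC2s, against 34.8 and 30 RPKM in WAT-ILC2s (change 0.04, adjusted p = 0.83). Myl12b, its close paralog, had 22.5 and 21.3 RPKM in SI-ILC2s, against 27.5 and 20.5 RPKM in WAT-ILC2s (change -0.11, adjusted p = 0.62). The tissues overlapped in all 3. Myl12a and Myl12b overlap in the annotation, and Myl12a made up 60.7 and 59.9% in SI-ILC2s, against 55.8 and 59.4% in WAT-ILC2s, of their sum.

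Of the 5 tropomyosins and other side-binding proteins, which stabilise or mark filaments, 4 fell, against 29.6% of all tested genes. Tagln2, transgelin 2, had 200.2 and 166 RPKM in SI-ILC2s, against 432 and 321 RPKM in WAT-ILC2s, with a change of -1.03 ± 0.21 (adjusted p = 0.01) kept under 13 of the 14 alternatives. Lsp1, the leukocyte-specific filament-binding protein, had 42.7 and 33.1 RPKM in SI-ILC2s, against 84.97 and 60.8 RPKM in WAT-ILC2s and changed by -0.92 ± 0.21 (adjusted p = 0.015), kept under 13 of the 14. Both genes were separated between tissues, although WAT-ILC2 replicate 1 was well above WAT-ILC2 replicate 2. Tpm3 had 91.8 and 84.1 RPKM in SI-ILC2s, against 129.9 and 126 RPKM in WAT-ILC2s (change -0.54 ± 0.15, adjusted p = 0.027), kept under 10 of the 14, and 62.4% of its stretches occur in other genes. Tpm4 had 126 and 122 RPKM in SI-ILC2s, against 116 and 135 RPKM in WAT-ILC2s, and did not pass (change -0.01, adjusted p = 0.97). Tpm3 took 42.1 and 40.8% in SI-ILC2s, against 52.8 and 48.3% in WAT-ILC2s, of the tropomyosin sum, with lower shares in both SI-ILC2 libraries.

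Flna, filamin A, crosslinks filaments into a mesh and binds the tails of integrins. Flna had 5.77 and 6.88 RPKM in SI-ILC2s, against 59.1 and 44.4 RPKM in WAT-ILC2s. Every SI-ILC2 value lay far below every WAT-ILC2 value, the mean was 8.19-fold higher in WAT-ILC2s, and the change was -2.84 ± 0.18 (adjusted p = 2.6e-04). Flna lies at chrX:74223461-74249820 on the minus strand in GENCODE M21, with no shared stretch and no exon overlap. The GC box, GGGCGG searched on both strands, occurs 3 times in its RefSeq window, starting at -166, -122 and -87 from the annotated start. The printed stretch holds the last of these whole, in capitals and as its reverse complement, and begins inside the one before it. This stretch lies inside the gene as annotated in GENCODE M21, before a RefSeq start within it.
Flna, chrX:74246565-74246654, minus strand: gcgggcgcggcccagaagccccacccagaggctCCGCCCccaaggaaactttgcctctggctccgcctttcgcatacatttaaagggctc

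Lcp1, L-plastin, bundles filaments in leukocytes. It had 15.96 and 16.2 RPKM in SI-ILC2s, against 38.3 and 36.3 RPKM in WAT-ILC2s, a change of -1.16 ± 0.13 (adjusted p = 0.0013) with tight replicates. Actn4 and Iqgap1 did not pass. Actn4, alpha-actinin 4, had 21.3 and 35.7 RPKM in SI-ILC2s, against 26.4 and 37.7 RPKM in WAT-ILC2s, with overlap (change -0.19, adjusted p = 0.6). Iqgap1, a scaffold that binds filaments and small GTPases, had 9.63 and 11.2 RPKM in SI-ILC2s, against 9.70 and 12.3 RPKM in WAT-ILC2s, with overlap (change -0.07, adjusted p = 0.76). Actn1, alpha-actinin 1, was not tested, with 0.106 and 0.176 RPKM in SI-ILC2s, against 0.287 and 0.593 RPKM in WAT-ILC2s; it made up 0.496 and 0.491% in SI-ILC2s, against 1.07 and 1.55% in WAT-ILC2s, of the sum of both actinins.

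All 5 genes of the integrin adhesion group fell, and in each both SI-ILC2 libraries lay below both WAT-ILC2 libraries. Over all tested genes, 29.6% fell and 45.9% had both SI-ILC2 libraries below. Vasp and Evl are Ena/VASP proteins, which lengthen filaments at adhesions and at the leading edge. Vasp had 4.44 and 4.32 RPKM in SI-ILC2s, against 10.2 and 13.6 RPKM in WAT-ILC2s, with a change of -1.25 ± 0.17 (adjusted p = 0.0024). Evl had 4.75 and 4.87 RPKM in SI-ILC2s, against 11.2 and 10.5 RPKM in WAT-ILC2s, with a change of -1.03 ± 0.14 (adjusted p = 0.0021). Vasp took 48.3 and 47.02% in SI-ILC2s, against 47.6 and 56.6% in WAT-ILC2s, of their sum, with overlap. Zyx, zyxin, which accumulates at adhesions under tension, had 6.67 and 7.80 RPKM in SI-ILC2s, against 15.5 and 15.6 RPKM in WAT-ILC2s (change -1.01 ± 0.14, adjusted p = 0.0025). Tln1, talin 1, which activates integrins, had 1.28 and 1.44 RPKM in SI-ILC2s, against 2.29 and 2.62 RPKM in WAT-ILC2s (change -0.55 ± 0.14, adjusted p = 0.018). The Tln1 call was kept under 10 of the 13 alternatives, and that of Vcl under 12 of the 13. Exons of Tln1, Vcl, Zyx and Evl overlap a gene on the other strand in the annotation.

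The ERM proteins link cortical actin to membrane proteins. Msn, moesin, the main ERM protein of lymphocytes, had 17.9 and 18.1 RPKM in SI-ILC2s, against 39.6 and 41.6 RPKM in WAT-ILC2s, and fell, with a change of -1.13 ± 0.13 (adjusted p = 0.0014), with no overlap. Ezr, ezrin, had 23.7 and 22.9 RPKM in SI-ILC2s, against 28.1 and 33.8 RPKM in WAT-ILC2s, with both SI-ILC2 libraries lower, but did not pass (change -0.39 ± 0.15, adjusted p = 0.075). Rdx, radixin, had 3.39 and 4.42 RPKM in SI-ILC2s, against 3.62 and 4.59 RPKM in WAT-ILC2s, with overlap (change -0.06, adjusted p = 0.8). Ezr took 52.7 and 50.5% in SI-ILC2s, against 39.3 and 42.2% in WAT-ILC2s, of the ERM sum, and Msn took 39.8 and 39.8% in SI-ILC2s, against 55.6 and 52.04% in WAT-ILC2s. By RPKM, ezrin message was therefore the larger part in both SI-ILC2 libraries and moesin message in both WAT-ILC2 libraries.

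**Figure D2:**
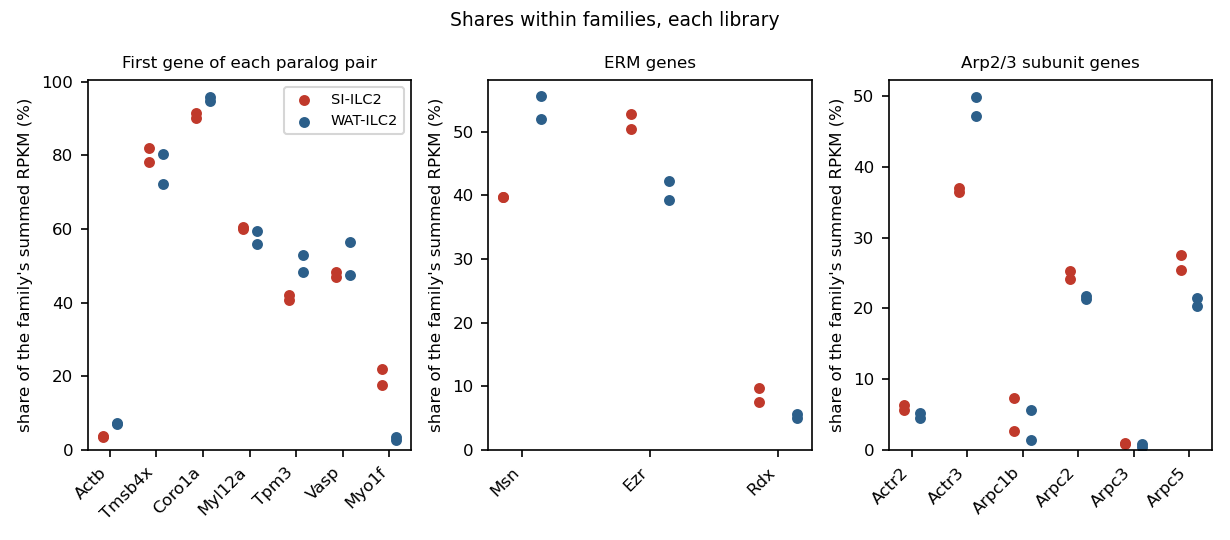
Percent of each family's summed RPKM taken by 1 member in each library, SI-ILC2s left of WAT-ILC2s, with a point per library. Actb, Myo1f and the ERM proteins are separated between tissues, while Tmsb4x and Vasp overlap.

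Vimentin message was far lower in SI-ILC2s. Vim, which encodes the intermediate filament of mesenchymal and blood cells, had 46.4 and 51.2 RPKM in SI-ILC2s, against 399 and 329.7 RPKM in WAT-ILC2s. The SI-ILC2 libraries lay far below the WAT-ILC2 libraries, the mean was 7.47-fold higher in WAT-ILC2s and the change was -2.87 ± 0.17 (adjusted p = 2.4e-04). Vim lies at chr2:13573927-13582826 on the plus strand, with no shared stretch and no exon overlap. A TATA box, searched as TATAAA on both strands, was in the window of 3 of the 46 genes (Emp3, Myh9 and Vim, 6.52%), against 8.45% of tested genes. That of Vim is in capitals, in a stretch that lies inside the gene as annotated in GENCODE M21, before a RefSeq start within it.
Vim, chr2:13574265-13574294, plus strand: tttcctaacagtgtTATAAAagcagcgccc

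The other 3 genes of the filament and linker group fell as well, where 29.6% of all tested genes fell. Lmna, the gene of lamins A and C of the nuclear envelope, had 57.2 and 69.5 RPKM in SI-ILC2s, against 232 and 285 RPKM in WAT-ILC2s. No SI-ILC2 value reached a WAT-ILC2 value, the mean was 4.08-fold higher in WAT-ILC2s, and the change was -2.01 ± 0.19 (adjusted p = 6.7e-04). Plec, plectin, which links intermediate filaments to actin and adhesions, had 1.28 and 1.14 RPKM in SI-ILC2s, against 6.55 and 4.81 RPKM in WAT-ILC2s (change -1.58 ± 0.17, adjusted p = 0.0011). Plec exons overlap Parp10 on the same strand. Ahnak, a very large scaffold protein below the membrane, had 1.77 and 1.41 RPKM in SI-ILC2s, against 5.01 and 4.04 RPKM in WAT-ILC2s (change -1.09 ± 0.16, adjusted p = 0.0031). In all 4 genes of the group both SI-ILC2 libraries lay below both WAT-ILC2 libraries, against 45.9% of all tested genes.

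Crip1 and Emp3 completed the 50 genes. Crip1 encodes a small LIM domain protein. Crip1 had 4.92 and 4.13 RPKM in SI-ILC2s, against 43.4 and 35.9 RPKM in WAT-ILC2s. The values of the tissues were far apart, the mean was 8.76-fold higher in WAT-ILC2s, the largest ratio among the 49 tested, and the change was -2.88 ± 0.16 (adjusted p = 2.0e-04). Its window holds 3 GC boxes, of which the adjacent pair starting at -32 and -26 is in capitals in the printed stretch. That stretch lies inside the gene as annotated in GENCODE M21, before a RefSeq start within it. A GC box occurs in 39 of the 46 cytoskeletal genes with a window (84.8%), against 71.6% of tested genes. Emp3, a membrane protein of the PMP22 family, had 2.01 and 1.65 RPKM in SI-ILC2s, against 6.34 and 4.51 RPKM in WAT-ILC2s and fell, with a change of -1.17 ± 0.19 (adjusted p = 0.0038).
Crip1, chr12:113151922-113152011, plus strand: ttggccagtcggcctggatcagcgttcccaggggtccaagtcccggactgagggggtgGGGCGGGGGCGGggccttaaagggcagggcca

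Other motifs showed smaller gaps or the other direction. The CCAAT box (CCAAT) was in 14 of the 46 genes with a window (30.4%), against 43.3% of tested genes. The AP-1 site (TGANTCA) was in 5 of these 46 genes (10.9%), against 6.04%. Both strands were searched, each motif was counted separately where matches overlapped, and windows come from RefSeq.

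**Figure D3:**
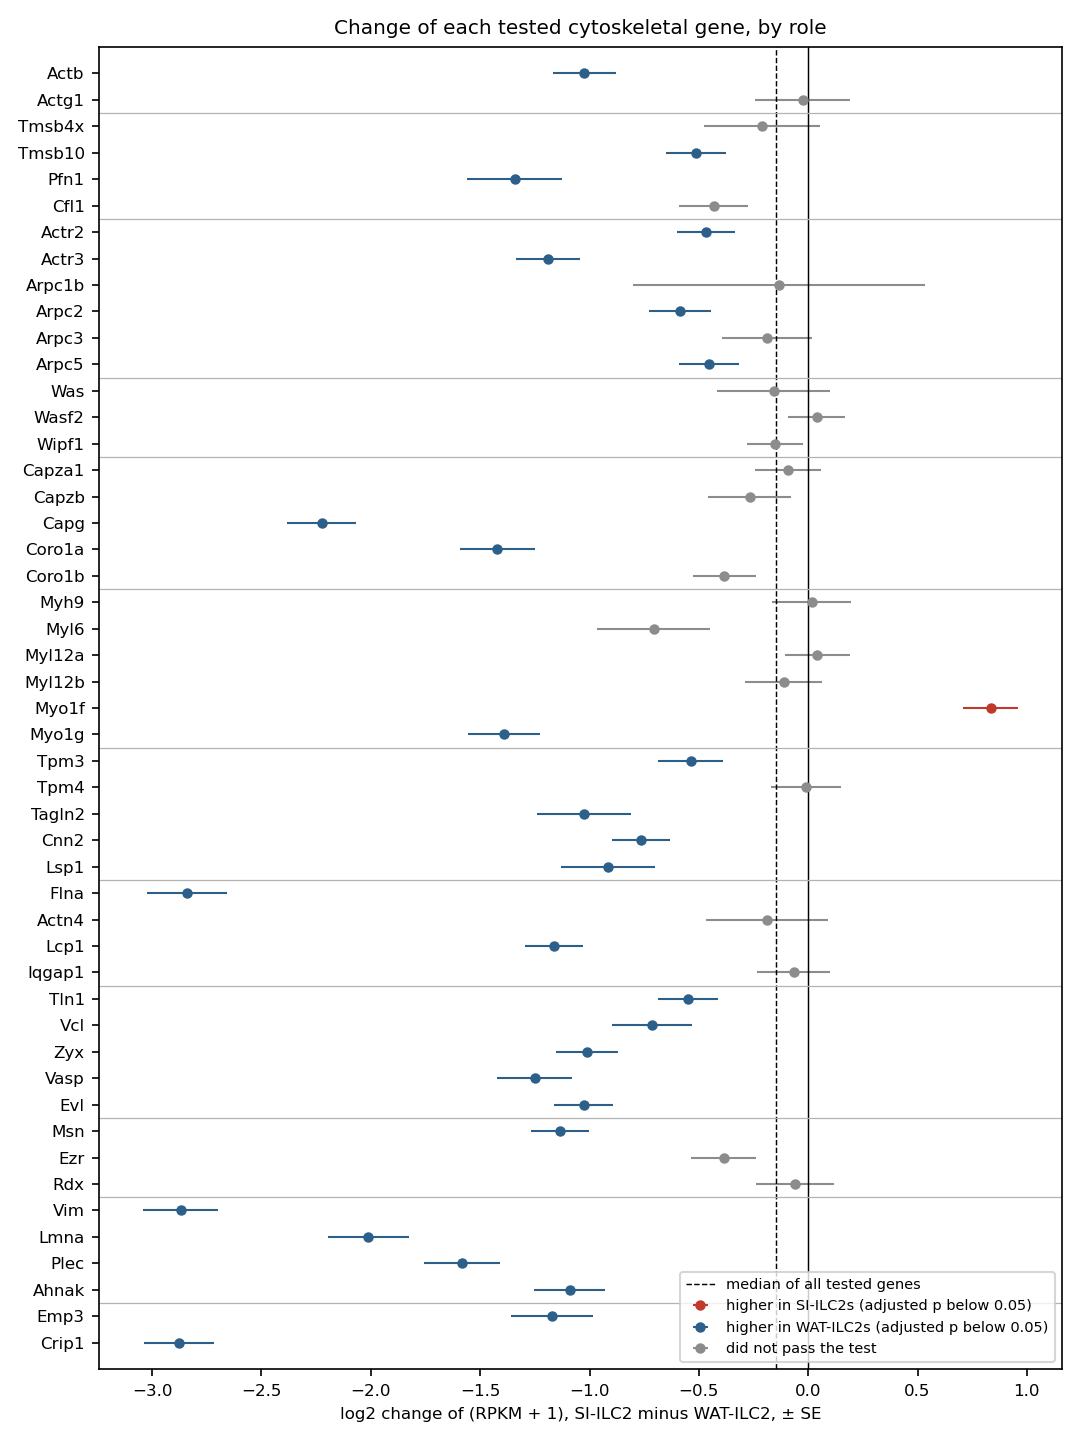
Log2 change (SI-ILC2 minus WAT-ILC2) of the 49 tested genes with its standard error, ordered by role and marked by whether the adjusted p passed. Falls of more than 2 on the log2 scale are those of Crip1, Vim, Flna, Capg and Lmna, and Myo1f is the single rise.

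Of the wider actin pathway, 159 genes outside the 50 were in the table, 6 of them under an older symbol, and 125 were tested. Of these, 55 fell (44%) and 14 rose (11.2%), with a median change of -0.40, against 29.6%, 17.9% and -0.15 over all tested genes. Of the called pathway genes, 2 reached the filter in SI-ILC2s only and 7 in WAT-ILC2s only. Without SI-ILC2 replicate 1 the counts were 33 that fell and 8 that rose, and without SI-ILC2 replicate 2 they were 41 and 6. Over all tested genes the shares were lower too, with 18.2% that fell and 9.45% that rose without SI-ILC2 replicate 1, and 23.1% and 9.77% without SI-ILC2 replicate 2.

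Among 11 actin kinases and phosphatases 2 rose (18.2%) and 3 fell (27.3%), shares near the 17.9% and 29.6% of all tested genes. Pak1, a kinase that acts on actin regulators, had 32.8 and 30.3 RPKM in SI-ILC2s, against 5.78 and 5.18 RPKM in WAT-ILC2s, a rise of 2.33 ± 0.14 (adjusted p = 2.4e-04). Slk, which phosphorylates ERM proteins, had 23.5 and 30.3 RPKM in SI-ILC2s, against 8.39 and 10.9 RPKM in WAT-ILC2s, a rise of 1.39 ± 0.19 (adjusted p = 0.0024). Rock1, a kinase that promotes myosin contraction, had 15.3 and 17.4 RPKM in SI-ILC2s, against 25.2 and 24.9 RPKM in WAT-ILC2s, a change of -0.59 ± 0.14 (adjusted p = 0.015).

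Other integrin adhesion genes were also mostly lower. Of 13 tested, 8 fell (61.5%) and 2 rose (15.4%), against 29.6% and 17.9% of all tested genes. Fermt3, kindlin 3, the integrin coactivator of blood cells, had 18.3 and 23.6 RPKM in SI-ILC2s, against 57.6 and 69.6 RPKM in WAT-ILC2s (change -1.56 ± 0.18, adjusted p = 0.0014). Ilk, integrin-linked kinase, had 12.9 and 12.6 RPKM in SI-ILC2s, against 30.5 and 35.5 RPKM in WAT-ILC2s (change -1.30 ± 0.14, adjusted p = 0.0011), and Apbb1ip, the Rap1 effector RIAM, had 5.78 and 8.47 RPKM in SI-ILC2s, against 12.6 and 17.1 RPKM in WAT-ILC2s (change -0.97 ± 0.22, adjusted p = 0.014). Tes, testin, rose, with 32.4 and 32.2 RPKM in SI-ILC2s, against 16.7 and 15.9 RPKM in WAT-ILC2s (change 0.94 ± 0.13, adjusted p = 0.0025). Of 22 other actin-binding proteins 11 fell (50%) and 3 rose (13.6%). Among the falls was Marcksl1 (change -1.50 ± 0.15, adjusted p = 9.4e-04). It had 6.41 and 5.92 RPKM in SI-ILC2s, against 17.4 and 21.2 RPKM in WAT-ILC2s. Twf1 rose by 0.62 ± 0.14 (adjusted p = 0.014) and its paralog Twf2 fell, with a change of -0.91 ± 0.16 (adjusted p = 0.0049). Of 12 other Arp2/3 and WAVE parts 3 fell (25%) and 2 rose (16.7%), near the 29.6% and 17.9% of all tested genes. Abi3, a WAVE part named after its values were seen, had 4.01 and 3.85 RPKM in SI-ILC2s, against 0.0789 and 0.359 RPKM in WAT-ILC2s, and rose by 2.03 ± 0.15 (adjusted p = 4.0e-04), having reached the filter in SI-ILC2s only. The WAVE subunits Cyfip2 and Nckap1l fell, with changes of -0.90 ± 0.14 (adjusted p = 0.0034) and -0.76 ± 0.17 (adjusted p = 0.012). Formins fell in 2 of 3 tested, with -0.62 for Diap1, and other myosins in 1 of 5 (20%), where 29.6% of all tested genes fell.

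**Figure D4:**
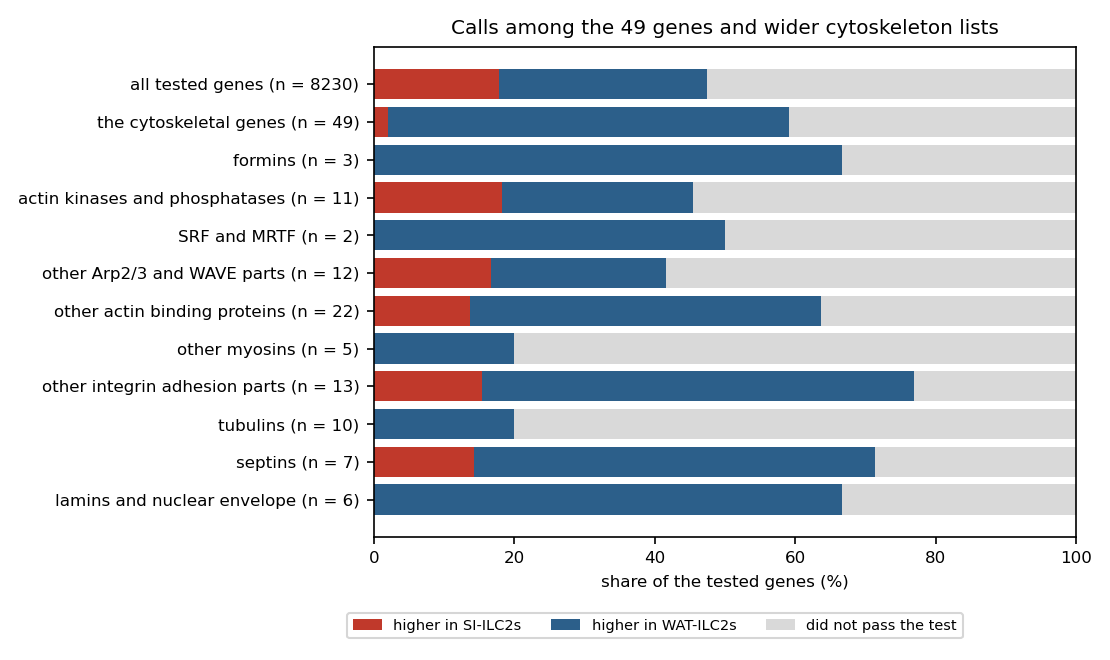
Share of tested genes, in percent, that were higher in SI-ILC2s, higher in WAT-ILC2s or did not pass, as 1 stacked bar for all tested genes, 1 for the cytoskeletal genes and 1 for each of 10 wider lists, with the number tested in brackets. The bar of the 49 genes holds 2.04% that rose in SI-ILC2s and 57.1% that fell.

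Markers of several other cells were higher in WAT-ILC2s. Those of red cells, and Cd3g alone among the T cell markers, reached levels like those of many of the 50 genes. Several others reached levels like those of the lower genes among the 50, such as Plec and Ahnak. These were Dcn of fibroblasts, Fabp4 of adipocytes, Lyz2 of macrophages and Epcam of epithelium in WAT-ILC2s, and Igj of plasma cells in SI-ILC2s. Genes of ILC2s summed to 1217 and 1221 RPKM in SI-ILC2s and to 981 and 946 RPKM in WAT-ILC2s, with 5 of 10 higher and 4 of 10 lower in both SI-ILC2 libraries. Gata3, the ILC2 transcription factor, had 354 and 377 RPKM in SI-ILC2s, against 338 and 397 RPKM in WAT-ILC2s, and was the marker of the 10 whose libraries overlapped. Il17rb had 164 and 141 RPKM in SI-ILC2s, against 14.3 and 10.3 RPKM in WAT-ILC2s, and Il1rl1 had 14.3 and 15.4 RPKM in SI-ILC2s, against 65.7 and 63.4 RPKM in WAT-ILC2s. Fibroblasts are rich in Vim and Lmna, and their 8 markers summed to 1.24 and 1.58 RPKM in SI-ILC2s, against 10.3 and 4.95 RPKM in WAT-ILC2s. In 6 of the 8 both SI-ILC2 libraries were lower, against 45.9% of all tested genes, though 5 of the 8 were under 1 RPKM in every library. Dcn had 0.0609 and 0.0958 RPKM in SI-ILC2s, against 6.11 and 1.87 RPKM in WAT-ILC2s. Pdgfrb went the other way, with 0.707 and 0.994 RPKM in SI-ILC2s, against 0.316 and 0.3725 RPKM in WAT-ILC2s. Smooth muscle markers, whose cells are rich in actin, summed to 2.34 and 10.3 RPKM in SI-ILC2s and 7.68 and 8.60 RPKM in WAT-ILC2s, with overlap and 2 of 8 lower in SI-ILC2s.

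Within these lists the genes differed. Counts of markers lower or higher in both SI-ILC2 libraries can be read only roughly against 45.9% and 29.8% of all tested genes. Those shares cover genes that reached the filter. Under 1 RPKM in every library were 5 of 6 adipocyte and 7 of 9 macrophage and dendritic cell markers, among others, but no red cell gene. Col3a1 had 0.0703 and 0.0575 RPKM in SI-ILC2s, against 2.32 and 1.09 RPKM in WAT-ILC2s, Col1a2 had 0.163 and 0.192 RPKM in SI-ILC2s, against 0.951 and 1.07 RPKM in WAT-ILC2s, and Fabp4, of adipocytes, had 0.257 and 0.172 RPKM in SI-ILC2s, against 4.32 and 3.43 RPKM in WAT-ILC2s. Col1a1 was at no more than 0.138 RPKM in SI-ILC2s and 0.319 RPKM in WAT-ILC2s, Pdgfra at no more than 0.0581 RPKM in SI-ILC2s and 0.0796 RPKM in WAT-ILC2s, and Adipoq at no more than 0.121 RPKM in SI-ILC2s and 0.106 RPKM in WAT-ILC2s. Endothelial markers summed to 4.80 and 7.29 RPKM in SI-ILC2s and 6.03 and 9.97 RPKM in WAT-ILC2s, with 5 of 8 lower in SI-ILC2s and 1 higher. The higher one was Pecam1, with 3.88 and 4.49 RPKM in SI-ILC2s, against 2.04 and 2.97 RPKM in WAT-ILC2s. Mesothelial markers summed to 0.711 and 2.63 RPKM in SI-ILC2s and 3.03 and 0.916 RPKM in WAT-ILC2s, with 3 of 6 lower. Intestinal epithelial markers summed to 6.75 and 12.3 RPKM in SI-ILC2s and 13.98 and 12.2 RPKM in WAT-ILC2s, with 3 of 8 lower. These 3 sums overlapped between tissues. Adipocyte markers summed to 0.731 and 0.348 RPKM in SI-ILC2s and 4.67 and 4.02 RPKM in WAT-ILC2s, with 2 of 6 lower in SI-ILC2s. Macrophage and dendritic cell markers summed to 4.23 and 2.06 RPKM in SI-ILC2s and 6.83 and 8.88 RPKM in WAT-ILC2s, with 3 of 9 lower. Of these, Lyz2 had 0.633 and 0.331 RPKM in SI-ILC2s, against 3.53 and 5.50 RPKM in WAT-ILC2s. Cd68 had 2.33 and 0.784 RPKM in SI-ILC2s, against 1.94 and 1.12 RPKM in WAT-ILC2s, with overlap. T cell markers summed to 8.43 and 6.77 RPKM in SI-ILC2s and 23.2 and 12.4 RPKM in WAT-ILC2s, with 1 of 5 lower. The T cell sum was mostly Cd3g, with 7.07 and 4.94 RPKM in SI-ILC2s, against 21.2 and 10.8 RPKM in WAT-ILC2s. Cd3e had 1.19 and 1.48 RPKM in SI-ILC2s, against 1.81 and 1.39 RPKM in WAT-ILC2s, with overlap. The 3 others, Cd3d, Cd4 and Cd8a, were under 1 RPKM in every library. Red cell genes summed to 41.5 and 13.2 RPKM in SI-ILC2s and 139.8 and 88.9 RPKM in WAT-ILC2s, lower in 5 of 5, and Hba-a2 had 14.1 and 4.11 RPKM in SI-ILC2s, against 44.99 and 27.7 RPKM in WAT-ILC2s. B and plasma cell markers summed to 7.59 and 5.80 RPKM in SI-ILC2s and 0.479 and 0.253 RPKM in WAT-ILC2s, with 2 of 5 higher. In SI-ILC2s this sum was mostly Igj, with 7.02 and 5.51 RPKM, against 0.0129 and 0 RPKM in WAT-ILC2s. No marker was at 0 in all libraries. The part of other cells in the falls was not tested.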

How the data were processed

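RNA was measured in 4 libraries, 2 of SI-ILC2s and 2 of WAT-ILC2s. Per the labels, a KAPA kit was used on total RNA. The authors deposited RPKM values in a single table, 1 column per library. The submitters' processing notes name STAR 2.6.0, Subread featureCounts 1.6.0 and GRCm38 (mm10). Which annotation, strand setting and filters they used, and how they placed multi-mapped reads, is not given in the sources. A count test was not run, since RPKM values are scaled. Depth was estimated from the smallest value steps of genes with few reads; 83.2% to 83.9% of such values fell on whole reads within 0.1, too few to recover counts.

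Genes with at least 1 RPKM in at least 2 libraries were compared on the log2(RPKM + 1) scale, SI-ILC2 minus WAT-ILC2, with limma 3.58.1 in R 4.3.3 (variance trend, not robust, no covariate), adjusted over all tested genes. The prior added 4.39 degrees of freedom, for a total of 6.39. Family shares were computed within each library without a test. The steps were checked on simulated data. Tables were made with pandas 2.3.3 and numpy 2.4.6 in Python 3.11.15, and figures with matplotlib 3.10.9. Exon overlaps and shared 50-base stretches came from GENCODE M21 (GRCm38), and promoter windows from RefSeq. The 50 genes, the pathway lists and the marker lists were chosen with earlier results of these data known. All 50 genes could be named; values in every library were required for the 8 largest called changes in each direction, the 6 most abundant genes and the family shares, and pathway lists gave up to 3 called genes per direction with a mean of at least 5 RPKM. Srf and its partners, Abi3, Arpc4, Arpc5l, Capza2, the other class I myosins and some marker genes are named outside this rule. They were chosen after their values were seen. The 14 alternatives were 2 other pseudocounts, no filter or a floor of 5 RPKM, 3 scalings, a replicate block, 2 variance models and leaving out each library. Some genes and lists of the wider pathway are counted in its totals but not reported here.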

Additional observations from a re-analysis of the deposited data

How the results depend on the processing

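Over the 14 alternatives, the number of the 50 genes that fell in SI-ILC2s ranged from 20 to 33. The number that rose was 1 under 10 of them, 0 at a floor of 5 RPKM, where Myo1f was not tested, and 0 to 2 when a library was left out. For the wider pathway, leaving out a library gave 6 to 13 that rose and 33 to 48 that fell. Of 672 values for the tested genes among the 50, 592 kept direction and call, 30 lost the call, 15 gained it and 35 turned direction; none of the last had been called. With median-of-ratios scaling the change was 0.17 for Actg1, 0.0354 for Arpc1b, 0.0907 for Capza1, 0.0706 for Myl12b, 0.18 for Tpm4, 0.11 for Iqgap1 and 0.0933 for Rdx. With quantile normalization it was 0.00362 for Wipf1, 0.00146 for Iqgap1 and 0.0754 for Rdx, and with equal sums -0.0514 for Wasf2, -0.11 for Myh9 and -0.11 for Myl12a. When a library was left out, the change ranged from -0.0777 to 0.0282 for Actg1, -0.57 to 0.15 for Tmsb4x, -1.07 to 0.81 for Arpc1b, -0.48 to 0.0998 for Arpc3, -0.46 to 0.14 for Was, -0.0413 to 0.12 for Wasf2, -0.22 to 0.0315 for Capza1, -0.18 to 0.21 for Myh9, -0.0619 to 0.14 for Myl12a, -0.32 to 0.0901 for Myl12b, -0.12 to 0.0992 for Tpm4, -0.55 to 0.17 for Actn4, -0.22 to 0.0904 for Iqgap1 and -0.21 to 0.0929 for Rdx. The cause of these turns was not tested. Without a library an arm has 1 sample, which is assumed to vary like the other group. With the replicate number as a block, 33 of the 50 genes fell and 1 rose, and 69 and 21 pathway genes; Capzb, Cfl1, Coro1b, Ezr and Myl6 then passed as well. Of all tested genes, 41.7% fell and 27.6% rose under it. The labels do not say what the numbers share; replicate differences correlated at 0.57 across 8230 genes and 0.84 across the 49, as a description across genes. Actn1, under 1 RPKM in every library, was not tested.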

Other observations

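Tubulins, septins and the nuclear envelope were described from the wider lists. Of 10 tested tubulins, the building blocks of microtubules, 2 fell and none rose, below the 29.6% of all tested genes that fell, with a median change of -0.08 against -0.15. Tuba4a had 35.3 and 34.4 RPKM in SI-ILC2s, against 109.8 and 112 RPKM in WAT-ILC2s (change -1.64 ± 0.14, adjusted p = 5.5e-04), and Tubb6 had 25.97 and 26.7 RPKM in SI-ILC2s, against 41.8 and 44.5 RPKM in WAT-ILC2s (change -0.69 ± 0.14, adjusted p = 0.0079). Both SI-ILC2 libraries were lower in both genes. Septins, GTP-binding proteins that form a further filament system at the cortex, fell in 4 of 7 (57.1%) and rose in 1 (14.3%). The shares over all tested genes were 29.6% and 17.9%. Sept11 had 13.3 and 10.5 RPKM in SI-ILC2s, against 34.7 and 28.7 RPKM in WAT-ILC2s (change -1.34 ± 0.17, adjusted p = 0.0019), Sept9 had 7.67 and 8.32 RPKM in SI-ILC2s, against 18.5 and 18.6 RPKM in WAT-ILC2s (change -1.12 ± 0.13, adjusted p = 0.0015), and Sept6, which rose, had 24.7 and 21.4 RPKM in SI-ILC2s, against 16.8 and 15.9 RPKM in WAT-ILC2s (change 0.47 ± 0.14, adjusted p = 0.037). Of 6 tested genes of the lamins and nuclear envelope outside Lmna, 4 fell (66.7%) and none rose, against 29.6% and 17.9% of all tested genes. Lbr, the lamin B receptor, had 12.04 and 15.7 RPKM in SI-ILC2s, against 31.2 and 34.01 RPKM in WAT-ILC2s (change -1.19 ± 0.17, adjusted p = 0.0026), and Emd, emerin, had 4.84 and 5.58 RPKM in SI-ILC2s, against 10.1 and 9.67 RPKM in WAT-ILC2s (change -0.81 ± 0.14, adjusted p = 0.0053).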
